A study of Mus musculus with 6 samples.

Results

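Forkhead transcription factors were examined in mouse embryonic stem cells that had been differentiated for 14 days and sorted on a knock-in reporter, green fluorescent protein (GFP) at the Nkx2-1 locus. Nkx2-1 encodes a homeodomain factor of lung, thyroid and ventral forebrain. The members were all genes whose symbol runs from Foxa1 to Foxs1 in the platform annotation and that had a row of their own on the array, 43 of the 19938 genes tested. The 2 groups were Nkx2-1 high (genotype given as Nkx2-1GFP+, GFP-positive cells, 3 samples) and Nkx2-1 low (genotype given as Nkx2-1GFP-, GFP-negative cells, 3 samples), both of the W4/129S6 background and both carrying the reporter. The labels describe 3 biological replicates without naming cultures, so that p-values measure the spread between these samples, and the sources used here do not say whether the line is 1 clone, how the sort gates were set or what cells each fraction held.

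Forkhead factors share a winged-helix DNA-binding domain and are sorted into lettered subfamilies by its sequence. FOXA members are pioneer factors that open chromatin in endoderm, FOXE1 acts in the thyroid primordium, and FOXP members repress and pattern genes of the lung epithelium. FOXF and FOXC members work in mesenchyme and vessels, FOXF downstream of hedgehog signals sent by the epithelium. FOXO factors are kept out of the nucleus by insulin and growth factor signalling through AKT, FOXM1 drives mitotic genes, and FOXJ1 switches on motile cilia.

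Expression is given as log2 values per gene, so that 1 unit is a doubling. Levels of different genes come from different probes and are not compared with each other. A level of 4.30, the 95th percentile of 1210 rows of olfactory and vomeronasal receptors, served as background. "Fell" is used of a gene with a limma adjusted p under 0.05 over all 19938 genes, ± after a mean is the SD over 3 samples, and ± after a difference (Nkx2-1 high minus Nkx2-1 low) is the standard error (SE). Nkx2-1, the sorted gene, measured 7.62, 7.77 and 7.77 in the Nkx2-1 high samples, against 5.42, 5.23 and 5.34 in the Nkx2-1 low samples. With 3 samples against 3, an exact two-sided permutation test of a single gene cannot give a p below 0.1, the value it gave for Nkx2-1, Foxf1 and Foxf2. In bulk samples such as these, fewer cells of a type and less RNA per cell cannot be told apart.

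Of the 43 forkhead genes, 4 fell in Nkx2-1 high and 0 rose by limma. The 4 were Foxf1 and Foxf2, genes of visceral and facial mesenchyme, Foxd1, a gene of stromal progenitors, and Foxk2, a broadly expressed regulator of metabolism and autophagy. Over all genes limma called 6.0%, 2.90% higher and 3.09% lower, so the called share of the family, 9.30%, rested on few genes, and no test of its excess was made. At an unadjusted p under 0.05, 5 members were higher and 5 lower (11.6% each way), beside 8.57% higher and 10.4% lower over all genes. The median difference over the 43 members was 0.02, beside -0.01 over all genes, and the median size of the difference was 0.12, beside 0.10 over all genes. No 2-fold change was called in the family, and such calls were rare over all genes (158 of 19938). Of the 33 members above background in both groups, 0 had a 95% interval that reached 1 log2 unit in either direction. The other 10 members lay at or under background in both groups. The groups did not overlap for 14 members, 8 higher and 6 lower, which is 32.6% of the family beside 24.7% of all genes.

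**Figure D1:**
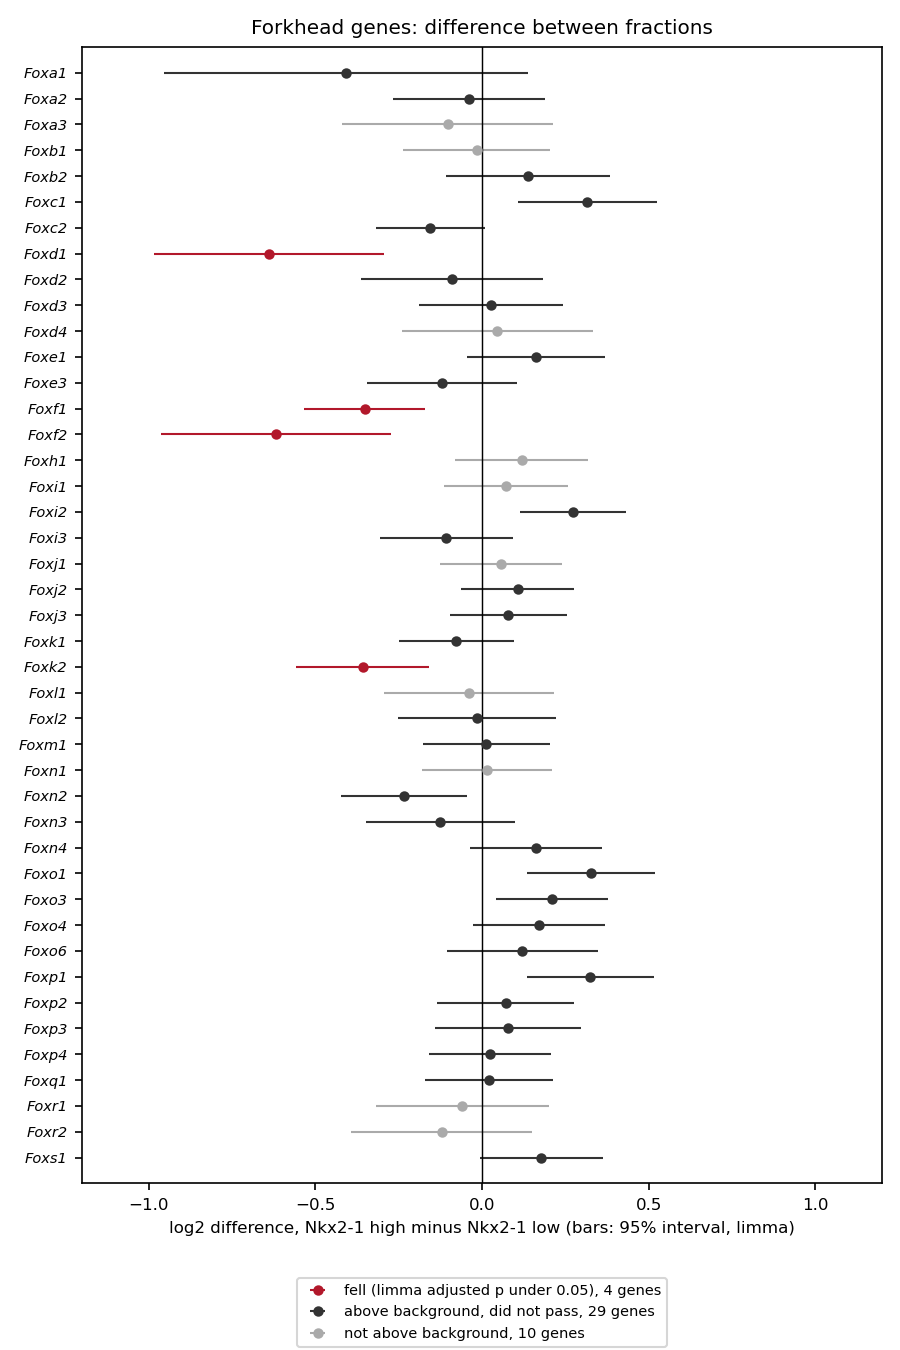
Difference in log2 expression, Nkx2-1 high minus Nkx2-1 low, for the 43 forkhead genes in order of subfamily, with bars for the 95% interval from limma. Foxd1 (-0.64) and Foxf2 (-0.62) lie farthest to the left, the called genes are all to the left of 0, and Foxo1 (0.33) lies farthest to the right without having passed.

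Foxf2, expressed in mesenchyme of the palate and gut, measured 6.22, 6.34 and 5.71 in the Nkx2-1 high samples, against 6.64, 6.60 and 6.88 in the Nkx2-1 low samples. All 3 Nkx2-1 high samples lay below all 3 Nkx2-1 low samples, and replicate 3 of Nkx2-1 high was the lowest by a wide margin. The difference was -0.62 ± 0.15 (SE), a 1.53-fold lower level (adjusted p = 0.0464). Without Nkx2-1 high replicate 3 it was -0.43 and did not pass (adjusted p = 0.0570). The loss was not particular to that sample. Foxf2 also did not pass without Nkx2-1 high replicate 1 or any Nkx2-1 low sample (adjusted p 0.0795 to 0.133). Foxf1, which the mesenchyme and capillaries of the lung need, measured 5.91, 5.96 and 6.05 in Nkx2-1 high, against 6.37, 6.23 and 6.38 in Nkx2-1 low. The groups did not overlap and the samples of each lay close together. The difference was -0.35 ± 0.08 (SE), 1.28-fold lower (adjusted p = 0.0336). A second, dimmer row assigned to Foxf1 showed no such difference, with means of 4.19 in Nkx2-1 high and 4.10 in Nkx2-1 low, both under background. With the mean of both rows the difference of Foxf1 was -0.13 (adjusted p = 0.456), so its fall rests on the brighter row.

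Foxd1, which marks stromal progenitors of the kidney and part of the retina, measured 4.36, 4.30 and 4.28 in Nkx2-1 high, against 4.64, 4.87 and 5.35 in Nkx2-1 low. Nkx2-1 high sat next to the background level in every sample, while the Nkx2-1 low samples ran from 4.64 to 5.35, all above it. The difference of -0.64 ± 0.15 (SE, adjusted p = 0.0405), 1.56-fold, is therefore measured against a group near the floor of the array. The other FOXD genes did not pass. Foxd3, a factor of neural crest and pluripotent cells, measured 4.40, 4.52 and 4.66 in Nkx2-1 high, against 4.41, 4.64 and 4.45 in Nkx2-1 low, and the groups overlapped throughout (0.03 ± 0.10, SE). Foxd2, of paraxial and kidney mesenchyme, differed by -0.09 ± 0.12 (SE), and Foxd4 was not above background.

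The FOXC genes, which act in vessels, somites and the mesenchyme around the eye, did not pass, and their values differed in sign. Foxc1 measured 6.81, 6.70 and 6.55 in Nkx2-1 high, against 6.46, 6.26 and 6.39 in Nkx2-1 low. Every Nkx2-1 high sample lay above every Nkx2-1 low sample, with a difference of 0.32 ± 0.09 (SE, adjusted p = 0.0888). Foxc2 differed by -0.16 ± 0.07 (SE, adjusted p = 0.292), with means of 4.95 ± 0.04 in Nkx2-1 high and 5.10 ± 0.04 in Nkx2-1 low (SD, n = 3 each). In the RefSeq annotation (GRCm38.p6), Foxq1, Foxf2 and Foxc1 follow each other with no other protein-coding gene between them. Within that run Foxf2 fell, Foxc1 had a positive difference and Foxq1, a gene of stomach mucous cells and hair, differed by 0.02 ± 0.09 (SE, adjusted p = 0.928). Foxc2 and Foxl1 are also direct neighbours, and neither passed. Foxl1, a marker of the mesenchymal cells under the gut epithelium, was not above background. Foxs1, expressed around vessels and in sensory neurons, differed by 0.18 ± 0.08 (SE, adjusted p = 0.283), and its groups did not overlap.

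**Figure D2:**
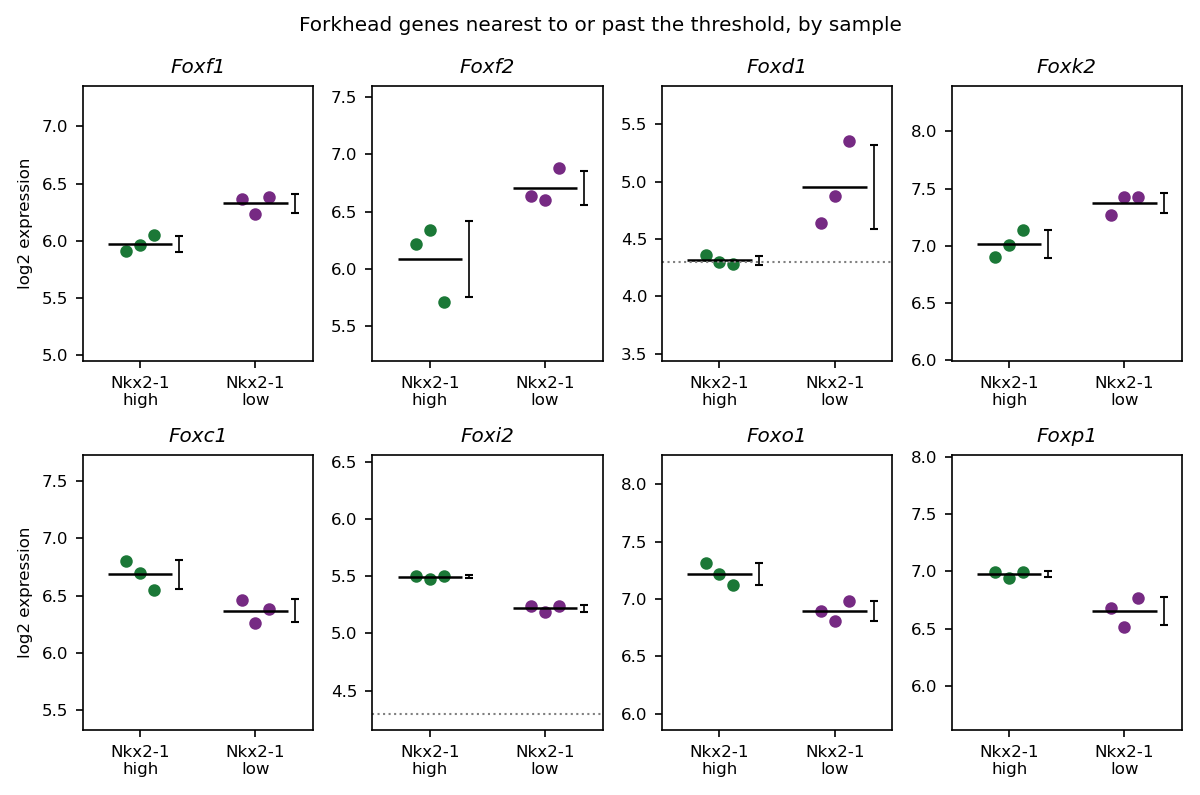
Log2 expression by sample for the 4 forkhead genes that fell (top row) and the 4 with positive differences nearest to the threshold (bottom row), with horizontal lines for group means, error bars for the SD of 3 samples and a dotted line for background. The groups do not overlap in any of the 8 panels, and Foxd1 in Nkx2-1 high lies on the background line.

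Of 18 mesenchyme genes, 9 fell, 2 rose and 7 were not called, with a median difference of -0.47, beside 6.0% called over all genes. Of all genes 3.09% fell and 2.90% rose, the shares beside which the counts of this and each later list stand. Postn, which encodes the matrix protein periostin, differed by -2.34 ± 0.16 (SE), the receptor gene Pdgfra by -2.00 ± 0.17 and the homeobox gene Prrx1 by -1.90 ± 0.14. The 2 that rose were Meox1, a homeobox gene of somites, by 1.26 ± 0.24 (SE), and the signal gene Bmp4 by 0.97 ± 0.09. Meox1 did not pass when replicate 2 of Nkx2-1 high was left out (adjusted p = 0.0601). The mean log2 level of the 18 genes ran from 6.87 to 7.16 over the Nkx2-1 high samples, against 7.47 to 7.69 over the Nkx2-1 low samples, and 1 of the 18 was not above background in either group. Of 10 neural crest genes, Foxd3 among them, 5 fell and 0 rose, with a mean level of 6.0 to 6.20 in Nkx2-1 high and 6.62 to 6.76 in Nkx2-1 low. The largest falls there were Crabp1, of a retinoic acid-binding protein (-1.92 ± 0.12, SE), the homeobox gene Msx1 (-1.59 ± 0.11) and Tfap2b, which Nkx2-1 low alone expressed above background, a fall of at least 1.35-fold. The part of such cells in the falls of Foxf1, Foxf2 and Foxd1 was not tested. With 1 sample left out, 7 to 9 of the mesenchyme genes fell. Of the neural crest genes, 3 fell without Nkx2-1 high replicate 2, Nkx2-1 high replicate 3, Nkx2-1 low replicate 1 or Nkx2-1 low replicate 2, and 4 without either of the other samples.

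The hedgehog pathway, which acts upstream of FOXF genes, was measured with 13 genes, of which 3 fell and 0 rose (median difference -0.15). The shares over all genes were 3.09% and 2.90%. Gli1, a transcription factor gene switched on by the pathway, fell by 0.63 on the log2 scale (adjusted p = 0.00648), Gli3, of its main repressor, by 0.54 and the co-receptor gene Gas1 by 0.49. Gli1 passed in all 6 fits without 1 sample, and Gli3 and Gas1 each in 4 of the 6. With the replicate block 5 of the 13 fell. Without Nkx2-1 low replicate 2 only 1 of the 13 fell, and without Nkx2-1 high replicate 2 or Nkx2-1 low replicate 3 it was 2. Ptch1, the receptor gene, had means of 8.09 in Nkx2-1 high and 8.60 in Nkx2-1 low (adjusted p = 0.153), and the ligand gene Shh had means of 5.46 in Nkx2-1 high and 5.81 in Nkx2-1 low (adjusted p = 0.327).

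Foxk2 was the only called member outside the D and F subfamilies. It measured 6.90, 7.01 and 7.14 in Nkx2-1 high, against 7.27, 7.43 and 7.42 in Nkx2-1 low, with no overlap between the groups. The difference was -0.36 ± 0.09 (SE), 1.28-fold lower (adjusted p = 0.0460). Its close relative Foxk1, which shares many binding sites with it, differed by -0.08 ± 0.08 (SE, adjusted p = 0.662). The difference between the paralogues was not tested. Foxn2 had means of 6.30 ± 0.03 in Nkx2-1 high and 6.54 ± 0.12 in Nkx2-1 low (SD, n = 3 each), separate groups that did not pass (adjusted p = 0.159), and Foxn3, a checkpoint gene, differed by -0.12 ± 0.10 (SE) on its brighter row and by -0.06 on the other.

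All 4 calls lay close to the threshold, and each was lost in most of the fits that left out 1 sample. With 1 sample left out, Foxd1 passed in 2 of 6 fits, and Foxf1, Foxf2 and Foxk2 in 1 of 6 each, with adjusted p up to 0.127, 0.121, 0.133 and 0.153. The groups of all 4 genes did not overlap, so leaving out 1 sample could not turn the sign. The differences were therefore bound to stay negative in these fits. They ran from -0.80 to -0.44 for Foxd1, -0.40 to -0.32 for Foxf1, -0.74 to -0.43 for Foxf2 and -0.42 to -0.30 for Foxk2. In the 7 fits with another processing, Foxd1 passed in 7, Foxf1 and Foxk2 in 6 each and Foxf2 in 4.

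**Figure D3:**
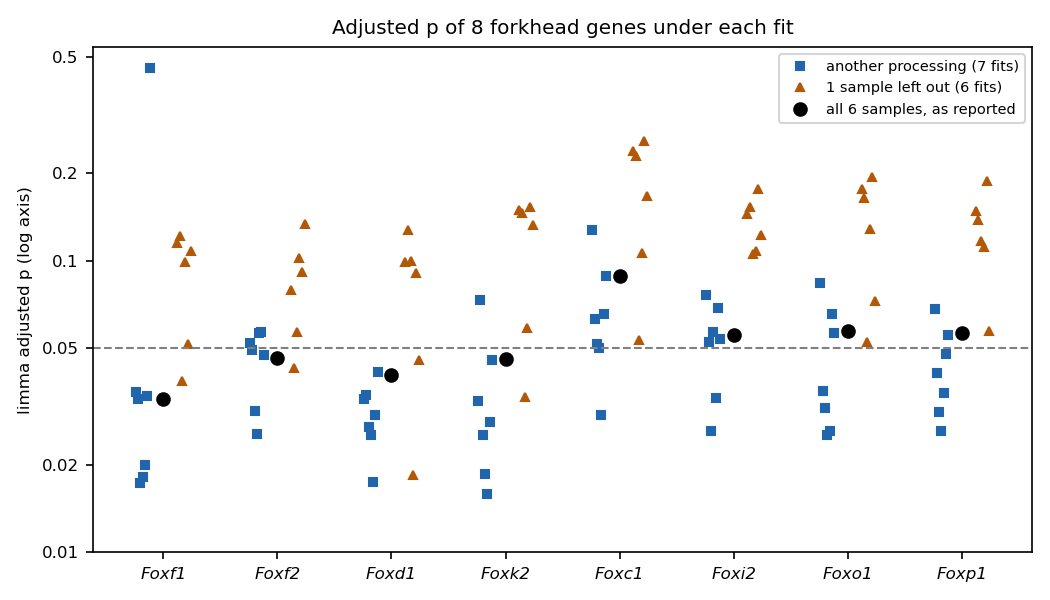
Limma adjusted p on a log axis for the 4 genes that fell (left) and the 4 with positive differences nearest to the threshold (right), with all 6 samples (circles), with 7 other ways of processing (squares) and with 1 sample left out (triangles), and a dashed line at 0.05. The 8 circles lie between 0.0336 and 0.0888, and most triangles lie above the line for all 8 genes.

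Promoter sequences are shown for the fallen genes with an entry in the RefSeq table, for Foxa1, the one member whose window holds the forkhead motif, and for Foxo1, the member with the largest positive difference, whose window holds the NKX2-1 motif. Each is the stretch of 250 bases before the annotated start (GRCm38.p6), in lower case with motif matches in capitals. The windows are chr13:31625566-31625815 (plus strand) for Foxf2, chr13:98353995-98354244 (plus) for Foxd1, chr11:121259737-121259986 (plus) for Foxk2, chr12:57546112-57546361 (minus) for Foxa1 and chr3:52268087-52268336 (plus) for Foxo1.
Foxf2: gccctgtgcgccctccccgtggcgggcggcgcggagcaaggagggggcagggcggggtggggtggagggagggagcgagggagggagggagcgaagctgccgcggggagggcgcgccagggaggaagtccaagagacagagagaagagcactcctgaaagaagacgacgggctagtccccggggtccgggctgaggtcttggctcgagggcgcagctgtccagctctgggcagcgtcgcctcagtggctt
Foxd1: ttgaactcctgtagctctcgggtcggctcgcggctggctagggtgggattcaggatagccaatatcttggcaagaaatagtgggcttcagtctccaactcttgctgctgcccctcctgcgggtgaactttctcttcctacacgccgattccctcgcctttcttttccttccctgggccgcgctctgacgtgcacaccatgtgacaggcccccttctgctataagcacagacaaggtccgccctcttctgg
Foxk2: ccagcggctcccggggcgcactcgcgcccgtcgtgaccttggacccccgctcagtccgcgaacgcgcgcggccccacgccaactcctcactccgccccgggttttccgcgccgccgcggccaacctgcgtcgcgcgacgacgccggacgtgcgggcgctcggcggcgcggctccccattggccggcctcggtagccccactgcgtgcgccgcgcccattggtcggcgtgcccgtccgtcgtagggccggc
Foxa1: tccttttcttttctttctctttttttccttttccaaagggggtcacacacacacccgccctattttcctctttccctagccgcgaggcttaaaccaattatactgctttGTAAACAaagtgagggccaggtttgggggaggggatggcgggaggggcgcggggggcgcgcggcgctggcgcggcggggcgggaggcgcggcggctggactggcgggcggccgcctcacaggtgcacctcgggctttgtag
Foxo1: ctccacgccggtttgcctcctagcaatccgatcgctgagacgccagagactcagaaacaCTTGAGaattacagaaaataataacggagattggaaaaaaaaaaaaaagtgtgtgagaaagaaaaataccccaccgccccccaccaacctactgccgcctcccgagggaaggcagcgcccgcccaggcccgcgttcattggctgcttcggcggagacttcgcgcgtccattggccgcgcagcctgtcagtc
The motifs were the forkhead motif TGTTTAC and the NKX2-1 motif CTCAAG, searched on both strands, and their matches did not overlap. Foxa1 holds the forkhead motif on the strand opposite to the gene, starting 141 bases before its start, and Foxo1 holds the NKX2-1 motif on the opposite strand, 191 bases before its start. The NKX2-1 motif also lies in windows of Foxa2, Foxa3 and Foxb2, at 187, 131 and 147 bases before the start. The windows of Foxf2, Foxd1 and Foxk2 hold neither.

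In all, 28 of the 43 members matched the promoter table, with 33 windows of 300 bases (250 before and 50 after the start). Of the 33 windows, 1 held the forkhead motif (3.03%, beside 3.65% of all 32851 windows) and 4 held the NKX2-1 motif (12.1%, beside 15.9%). Forkhead windows were rich in G and C, with a median of 62.7%, beside 52.7% over all windows, and had a median of 22 CG pairs, beside 7. Among the sequences shown, Foxk2 had 48 CG pairs in 250 bases and 78.4% G and C, Foxf2 had 21 and 71.6%, and Foxd1 had 12 and 57.2%. These are descriptions of sequence, and the array holds no measure of binding or methylation.

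Endoderm and thyroid members did not pass. Foxa2, a pioneer factor gene of definitive endoderm, measured 5.83, 5.73 and 5.66 in Nkx2-1 high, against 5.67, 5.68 and 5.99 in Nkx2-1 low. The groups overlapped, and both lay above background. Foxa1, which acts with Foxa2 in the lung and gut, measured 4.84, 5.52 and 6.01 in Nkx2-1 high, against 5.80, 5.70 and 6.09 in Nkx2-1 low. Replicate 1 of Nkx2-1 high stood far below the others, while replicate 3 was near the highest of Nkx2-1 low. The difference was -0.41 ± 0.24 (SE, adjusted p = 0.426), with a 95% interval from -0.95 to 0.14. Leaving out replicate 1 of Nkx2-1 high gave -0.10 (adjusted p = 0.822), and leaving out replicate 3 of that group gave -0.69 (adjusted p = 0.0899). The spread of Foxa1 within groups was wider than that of 99.8% of all genes, so the comparison was least precise for this member. Foxa3, of liver and gut, was not above background, with means of 3.30 ± 0.11 in Nkx2-1 high and 3.40 ± 0.31 in Nkx2-1 low (SD, n = 3 each).

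Foxe1, which thyroid precursor cells need to migrate, measured 6.58, 6.67 and 6.84 in Nkx2-1 high, against 6.46, 6.62 and 6.53 in Nkx2-1 low. The Nkx2-1 low samples overlapped the lower end of Nkx2-1 high, and the 95% interval of the difference ran from -0.04 to 0.37. Of 9 other thyroid genes, 2 rose and 0 fell, beside 2.90% and 3.09% over all genes. The 2 were the transcription factor genes Hhex (0.98 ± 0.15, SE) and Pax8 (0.60 ± 0.10). Of the 9, 6 were not above background. Of 18 endoderm genes, 1 rose (Hhex, also in the thyroid list) and 1 fell, the adhesion gene Epcam (-0.81 ± 0.11, SE). The median difference was 0.07. The falls numbered 2 with array weights and 3 with the replicate block. Epcam averaged 4.31 ± 0.17 in Nkx2-1 high, next to background, and 5.13 ± 0.17 in Nkx2-1 low (SD, n = 3 each), so that its difference is measured against a group near the floor. Foxe3, a lens gene, and its neighbour Foxd2 did not pass (Foxe3 -0.12 ± 0.10, SE).

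Of the FOXP genes, Foxp1 came nearest to the threshold. It measured 6.99, 6.94 and 6.99 in Nkx2-1 high, against 6.68, 6.52 and 6.76 in Nkx2-1 low, without overlap. The difference was 0.32 ± 0.08 (SE), 1.25-fold, at an adjusted p of 0.0563. It passed in 5 of the 7 fits with another processing and in 0 of the 6 without 1 sample (adjusted p 0.0571 to 0.187). Foxp2, which marks the distal lung epithelium, measured 6.10, 6.14 and 6.37 in Nkx2-1 high, against 6.15, 6.06 and 6.19 in Nkx2-1 low, and the groups overlapped. Foxp4, the third FOXP gene of the lung, differed by 0.02 ± 0.08 (SE), and Foxp3, the factor of regulatory T cells, by 0.08 ± 0.10. Of 9 genes of T cells and other blood cells, 0 rose and 0 fell by limma (at an unadjusted p under 0.05, 0 higher and 1 lower), 6 were not above background, and the mean level was 3.64 to 3.72 in Nkx2-1 high and 3.62 to 3.72 in Nkx2-1 low. Of 17 lung epithelium genes, 2 rose and 2 fell (median 0.05), beside 2.90% and 3.09% over all genes. In this list 6 genes were not above background. The signal gene Bmp4 (0.97 ± 0.09, SE), also counted among the mesenchyme genes that rose, and the surfactant gene Sftpa1 (0.49 ± 0.09) rose. Sftpa1 had low means, 5.32 in Nkx2-1 high and 4.83 in Nkx2-1 low, beside the background of 4.30. The receptor gene Fgfr2 (-0.61 ± 0.15) fell, a call kept by 1 of the 6 fits that left a sample out (adjusted p as high as 0.147). The count of falls in the lung list was 0 without Nkx2-1 high replicate 1 or 2 or Nkx2-1 low replicate 1 or 3, and 1 without Nkx2-1 low replicate 2.

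**Figure D4:**
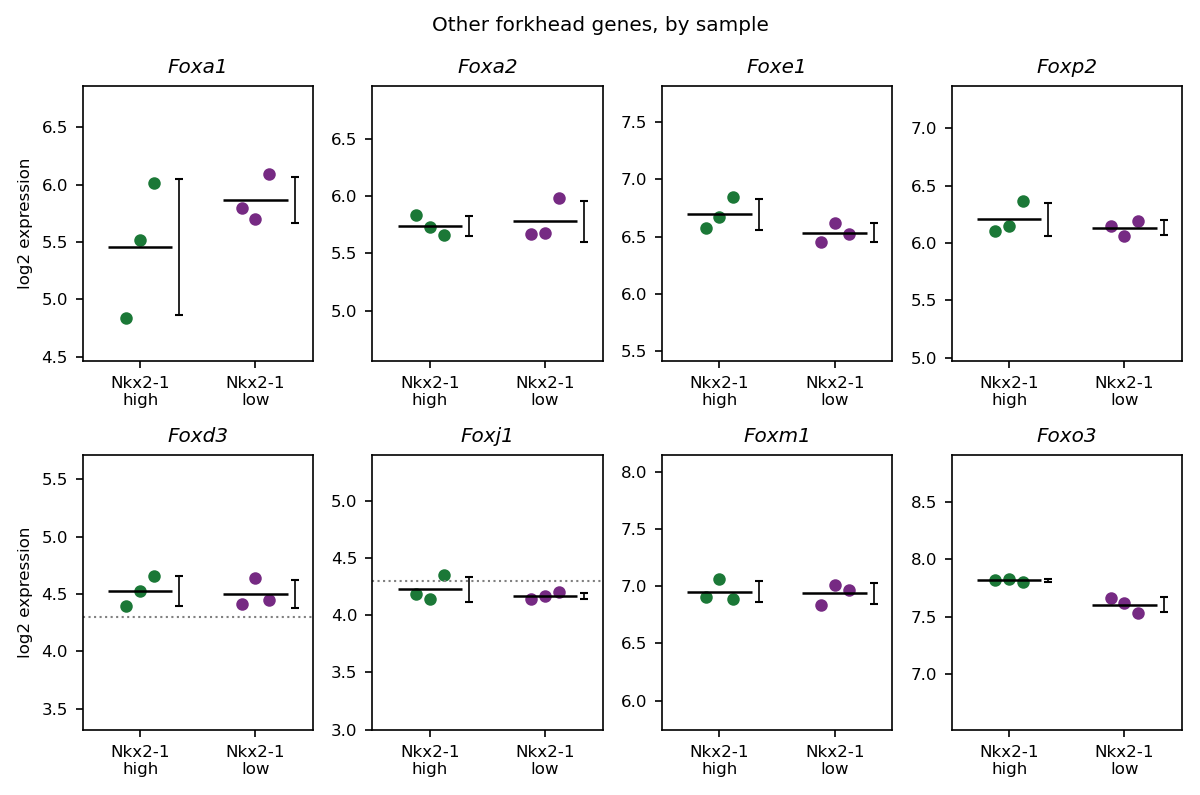
Log2 expression by sample for 8 further forkhead genes, drawn as in the plot of the genes that fell, with group means, the SD of 3 samples and background as a dotted line. Foxa1 in Nkx2-1 high is spread from 4.84 to 6.01, Foxj1 lies around the background line in both groups, and Foxo3 is the only one of the 8 without overlap.

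The FOXO genes all had positive differences, and 0 of the 4 passed. Foxo1 measured 7.32, 7.22 and 7.12 in Nkx2-1 high, against 6.89, 6.80 and 6.98 in Nkx2-1 low. The lowest Nkx2-1 high sample was above the highest Nkx2-1 low sample, with a difference of 0.33 ± 0.09 (SE), 1.25-fold, and an adjusted p of 0.0576. It passed in 4 of the 7 fits with another processing and in 0 of the 6 without 1 sample (adjusted p 0.0526 to 0.193). Foxo3, a factor of quiescence and stress resistance, measured 7.82, 7.83 and 7.80 in Nkx2-1 high, against 7.66, 7.62 and 7.53 in Nkx2-1 low. The difference was 0.21 ± 0.07 (SE, adjusted p = 0.153). Foxo4 differed by 0.17 ± 0.09 (SE), also without overlap, and Foxo6 by 0.12 ± 0.10, with overlap.

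Of 26 other genes of the FOXO pathway and its targets, 4 rose and 1 fell, with a median difference of 0.09. The shares over all genes were 2.90% and 3.09%. Sgk1, of a kinase that phosphorylates FOXO3 as AKT does, was 2.13-fold lower (-1.09 ± 0.12, SE, adjusted p = 0.000702). It measured 5.43, 5.46 and 5.38 in Nkx2-1 high, against 6.74, 6.57 and 6.24 in Nkx2-1 low. Irs2, of an insulin receptor substrate, was 1.51-fold higher (0.59 ± 0.07, SE), and Bcl6, a repressor gene that FOXO factors induce, 1.56-fold higher (0.64 ± 0.13). The other 2 that rose were Irs1 (0.46 ± 0.08, SE) and the cell cycle inhibitor gene Cdkn1b (0.35 ± 0.07). Sgk1 and Irs2 passed in all 6 fits without 1 sample, Irs1 in 5, and Bcl6 and Cdkn1b in 2 each (adjusted p up to 0.0811 for Bcl6 and 0.101 for Cdkn1b). With the mean over all rows of a gene, Irs1 and Cdkn1b did not pass (adjusted p 0.237 and 0.136). Without Nkx2-1 high replicate 2 only 1 of the 26 rose, and without Nkx2-1 high replicate 1 or Nkx2-1 low replicate 3 it was 2.

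Foxm1 and its mitotic targets did not pass. Foxm1 measured 6.90, 7.06 and 6.89 in Nkx2-1 high, against 6.84, 7.01 and 6.96 in Nkx2-1 low, with a 95% interval of the difference from -0.18 to 0.20. Of its 17 target genes, 0 rose and 0 fell by limma, also at an unadjusted p under 0.05, and the median difference was 0.00. Cenpa, a centromere histone gene of that list, had means of 8.74 in Nkx2-1 high and 8.77 in Nkx2-1 low. Foxj1, the switch of motile cilia, measured 4.19, 4.14 and 4.35 in Nkx2-1 high, against 4.14, 4.17 and 4.20 in Nkx2-1 low, not above background. Of 16 cilia genes 0 rose and 0 fell by limma (at an unadjusted p under 0.05, 2 higher and 1 lower), and 10 were not above background. Foxj2 and Foxj3, which are broadly expressed, differed by 0.11 ± 0.08 and 0.08 ± 0.08 (SE).

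**Figure D5:**
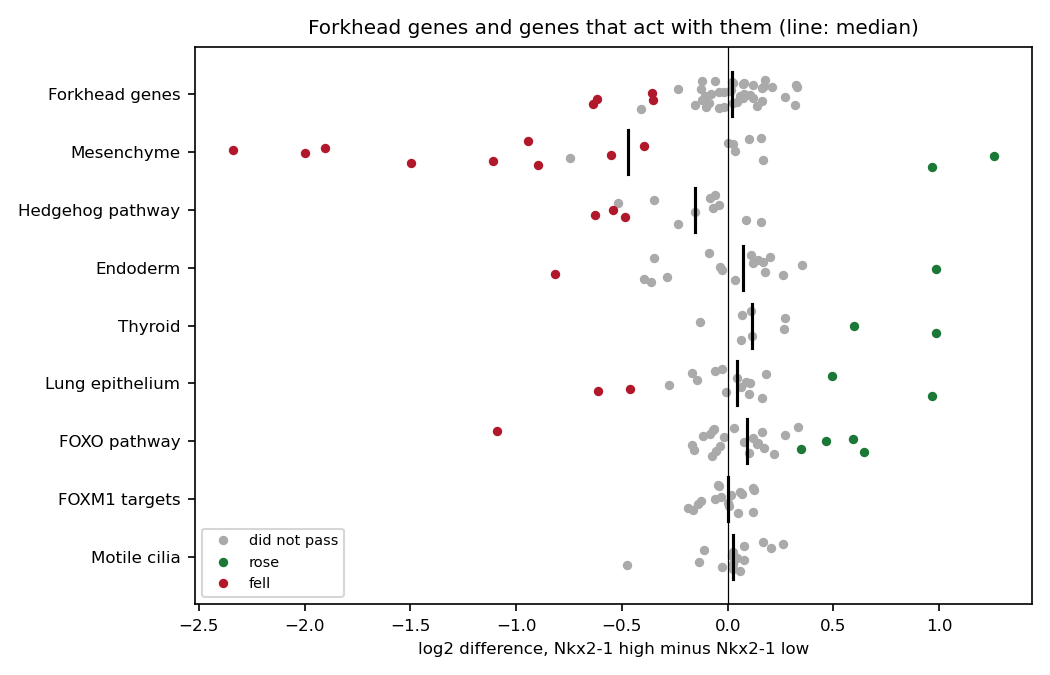
Log2 difference, Nkx2-1 high minus Nkx2-1 low, for the forkhead genes (top) and for 8 lists of genes that act upstream, downstream or in the same tissue, with 1 point per gene coloured by call and a line at each median. The mesenchyme list reaches from -2.34 to 1.26 with its median at -0.47, while the forkhead genes lie between -0.64 and 0.33.

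The remaining members are genes of ectoderm, sense organs, brain, gonad and thymus. Foxi2, expressed in cranial ectoderm, had the tightest replicates of those near the threshold. It measured 5.50, 5.48 and 5.50 in Nkx2-1 high, against 5.24, 5.18 and 5.24 in Nkx2-1 low. The difference was 0.27 ± 0.07 (SE), 1.21-fold, at an adjusted p of 0.0557, and it passed in 2 of the 7 fits with another processing. Foxi3, of placodes and teeth, differed by -0.11 ± 0.09 (SE), Foxb2, of the neural tube, by 0.14 ± 0.11, Foxn4, of the retina and spinal cord, by 0.16 ± 0.09, and Foxl2, of the ovary, by -0.02 ± 0.11. None of the 4 passed. The 10 members not above background were Foxa3, Foxb1, Foxd4, Foxh1, Foxi1, Foxj1, Foxl1, Foxn1, Foxr1 and Foxr2, with differences from -0.12 to 0.12. Foxh1 is the nuclear partner of nodal signalling, Foxi1 the factor of ionocytes, Foxn1 that of the thymus epithelium and Foxb1 a gene of the hypothalamus and neural tube. No fold is given for these 10.

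Endothelial, forebrain, neuronal and pluripotency genes were measured as further tissues in which forkhead factors act. Over all genes 2.90% rose and 3.09% fell. Of 12 endothelial genes 3 rose and 0 fell, the receptor genes Flt4 (1.10 ± 0.08, SE), Tek (at least 1.73-fold higher) and Eng (0.88 ± 0.21, called in 2 of the 6 fits that left a sample out, adjusted p as high as 0.122), with a median difference of 0.08. The receptor genes Kdr (-0.08) and Flt1 (-0.12) did not pass, and the cadherin gene Cdh5 was not above background in either group. Of 13 forebrain genes 1 rose and 4 fell, with Lhx8 (-2.54 ± 0.10, SE) the largest. Without Nkx2-1 low replicate 1 or 2 the forebrain counts were 0 that rose and 2 that fell, and without Nkx2-1 high replicate 1 or Nkx2-1 low replicate 3 they were 2 and 4. Of 12 neuronal genes 7 fell and 0 rose, among them the filament gene Ina (-1.58 ± 0.14). Of 10 pluripotency genes 1 rose, Klf4 (0.65 ± 0.09), and 7 were not above background. The part of these cells in the forkhead values was not tested.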

How the data were processed

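Arrays of 3 Nkx2-1 high and 3 Nkx2-1 low samples were analysed. Per the labels' protocols, RNA was amplified (WT-Ovation Pico) before biotin labelling, a step that can shift transcripts relative to each other. The deposited values were used as log2 expression made with RMA, per the submitters' processing notes. The sources used here give no RMA version, genome build or log base, and log2 was inferred from RMA and the range of the values (array medians 4.98 to 5.06). Scan dates and detection calls were not used here, and the number of arrays limits the precision.

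Of 29011 rows, 21789 had 1 symbol in GEO's platform annotation, 1621 several and 5601 none there. The brightest row per gene was kept, giving 19938 genes. Foxf1 and Foxn3 had 2 rows each, and all 43 members matched RefSeq by Entrez ID. The test was lmFit and eBayes of limma 3.58.1 (R 4.3.3) with group as the term and Benjamini-Hochberg adjustment over all genes. The fit was also run on simulated data, independent normal values with added differences. Such values meet its assumptions by construction, so that run does not bear on the calls in the real samples. The members, the 14 companion lists and the tests were chosen with earlier results of these data known. Every member could be named, those past the threshold and 12 set members by sample, and of each list up to 3 called genes with the largest change or else the brightest. Irs1, Cdkn1b, Meox1, Kdr, Flt1, Cdh5, Ptch1, Shh, Foxo3, Foxc1, Foxi2 and Foxl2os were chosen for more detail after their values were seen. Promoters came from a RefSeq table of GRCm38.p6. Alternatives were median centring, cyclic loess, only genes above background, trended robust eBayes, weighted arrays, the mean over rows, a replicate block and leaving out each sample. Plots used matplotlib 3.10.9 and Python 3.11.15.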

Additional observations from a re-analysis of the deposited data

How the results depend on the processing

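The number of forkhead genes that rose was 0 with the deposited values, 2 with cyclic loess, 3 with only genes above background, 2 with trended robust eBayes, 4 with array weights and 1 with the replicate block, and 0 with median centring, with the mean over rows and in all 6 fits without 1 sample. The genes gained were Foxo1, Foxp1, Foxi2 and Foxc1. Array weights gained all 4, and the replicate block gained Foxp1 alone (adjusted p = 0.0477). The number that fell was 3 or 4 with all 6 samples under every alternative, and 0 to 2 without 1 sample, 0 without Nkx2-1 high replicate 1 or Nkx2-1 low replicate 2. Fewer samples enter those fits, which called 624 to 1086 genes in all, beside 1196 with all 6 and 1106 to 1681 under the other alternatives. Of 549 member values under 13 alternatives, 513 kept their side of the threshold, 24 lost and 12 gained a call, and no called member changed sign. In the fits without 1 sample the called members could not change sign, since their groups did not overlap. With the replicate block 3 forkhead genes fell, without Foxf2 (adjusted p = 0.0569). Samples of the same number correlated in their deviations from the group means at 0.18, -0.00405 and 0.28 across genes for numbers 1, 2 and 3. Samples of unlike number ran from -0.27 (Nkx2-1 high 3 with Nkx2-1 low 1) to 0.15 (Nkx2-1 high 2 with Nkx2-1 low 1). For numbers 1 and 3 the like number gave the highest value. No label says that the numbers mark a common sort or culture, so the main fit took no pairs. Whether the samples were paired was not tested. Among the companion lists, counts moved by over 1.5 times for falls of hedgehog genes (3, and 5 with the block) and endoderm genes (1, 2 with array weights and 3 with the block), rises of FOXO pathway genes (4, and 2 with the mean over rows) and of forebrain genes (1, and 2 with median centring, only genes above background, array weights or the block). Of the cilia genes 1 fell with median centring, cyclic loess, trended robust eBayes, array weights and the block. Signal near background limits Foxd1 and the 10 members below it.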

Other observations

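Foxl2os, an RNA gene named for its place opposite Foxl2 and not itself a forkhead gene, fell while Foxl2 did not pass. It measured 5.40, 5.51 and 5.41 in Nkx2-1 high, against 6.01, 6.10 and 6.37 in Nkx2-1 low. The groups differed by -0.72 ± 0.10 (SE, adjusted p = 0.00319 by limma), and the gene passed in all 6 fits without 1 sample. Foxl2, a factor of ovary, eyelid and pituitary, measured 5.03, 5.24 and 5.29 in Nkx2-1 high, against 5.22, 5.35 and 5.04 in Nkx2-1 low, with overlapping groups. Its difference had a 95% interval from -0.25 to 0.22. The difference between the 2 genes was not tested. It was singled out after its values were seen.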
